A study of Mus musculus with 6 samples.

Results

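Mammary epithelium is built by a small set of transcription factors and by the hormones that act on them. The 10 genes described here, Prlr, Stat5a, Stat5b, Elf5, Ehf, Gata3, Foxa1, Tbx3, Grhl2 and Trp63, were taken by their symbols from the 55385 genes of the deposited tables, and all 10 were expressed highly enough to be tested among 19427 genes. Prolactin binds its receptor, encoded by Prlr, and the receptor's kinase JAK2 phosphorylates STAT5A and STAT5B, which enter the nucleus and act with the ETS factor ELF5 on milk protein genes in alveolar luminal cells. GATA3 and FOXA1 belong to the luminal program and act with the estrogen receptor in hormone-sensing luminal cells, where TBX3 is also expressed. The p63 protein, encoded by Trp63, marks and maintains basal cells, and EHF and GRHL2 control genes of epithelial differentiation and cell junctions.

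RNA came from 3 control and 3 DMHCA libraries of female NeuT/ATTAC mice, which carry an activated rat ErbB2 transgene under the MMTV promoter and an FKBPv-caspase-8 fusion under the FABP4 promoter. The MMTV promoter drives expression in mammary epithelium and itself responds to steroid hormones. Per the study's methods both groups received the dimerizer AP20187 at 0.4 mg/kg from 6 weeks of age, which removes part of the mammary fat, and the treated mice also received a diet with 0.05% DMHCA (100 mg/kg), a steroidal agonist of the liver X receptor, from 8 weeks of age. The controls' treatment label can be read as AP20187 in vehicle or as vehicle alone, the labels name the tissue as fibrotic mammary gland where the published text names tumors of 3 mice per group, and the labels do not tie libraries to mice, so the p-values measure the spread between these samples.

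Expected counts summed to 46358654 to 63420620 per control library and to 52330938 to 55539411 per DMHCA library. The biological coefficient of variation, the variation beyond sampling, was 0.0327 between DMHCA libraries 1 and 3, against 0.376 to 0.579 for the other pairs, and were summed and counted as 1 sample, which leaves 3 control and 2 DMHCA samples. Luminal markers summed to 3498 to 5086 TPM, an abundance scaled by the authors for transcript length and depth, in the 5 samples, fibroblast markers to 327.5 to 1288 TPM and skeletal muscle markers to 247 to 1021 TPM. The study lists far higher counts of Bpifa2, Amy1, Chia1 and Dcpp1 in control 1 than in any other library, and their source was not tested. Control 3 stood apart in its lymphocyte and adipocyte markers. There 9 lymphocyte markers summed to 365 TPM, against 1.99 to 42.4 TPM elsewhere. The 5 adipocyte markers summed to 914 TPM in control 3 and to 203 and 123 TPM in control 1 and 2. These 5 adipocyte markers summed to 68.7 and 68.8 TPM with DMHCA. The level of each was lower in both DMHCA samples than in all controls, as in 12.2% of all genes tested. Each was lower at an unadjusted p under 0.05 with all samples (4.08% of all genes tested) and without control 3. Their median log2 fold change was -4.87 and -3.50 in these fits. The adjusted p of each was 0.644 with all samples by edgeR. The part of adipocyte RNA in the values of the 10 genes was not tested. In bulk tissue fewer cells of a type and less RNA per cell cannot be told apart.

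On the TPM scale, which corrects for transcript length, Elf5 was the most abundant of the 10 genes in each sample, followed by Ehf and Gata3. Elf5 ranged from 115 to 331 TPM over the 6 libraries, Ehf from 81.0 to 187 TPM and Gata3 from 29.2 to 95.3 TPM. Grhl2 (17.4 to 38.6 TPM), Stat5a (12.6 to 34.3 TPM), Stat5b (12.4 to 28.3 TPM) and Prlr (14.4 to 26.8 TPM) formed a middle group whose order differed between samples. Foxa1, Trp63 and Tbx3 were low, at 0.06 to 5.42, 0.38 to 4.87 and 0.22 to 1.88 TPM. The same 3 genes, Elf5, Ehf and Gata3, were the ones that kept their rank in all 5 samples.

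Promoter sequence is shown for the receptor at the head of the prolactin pathway, for Elf5, the most abundant factor, and for Foxa1, the factor whose level varied most. RefSeq promoter windows (GRCm38.p6, 250 bases before and 50 after a start site) were at hand for 6 of the 10 genes, in 11 windows. Both strands were searched for the STAT5 motif TTCNNNGAA, the ETS motif AGGAAG, the GATA motif AGATAA, the forkhead motif TGTTTAC, the grainyhead motif AACCGGTT and a liver X receptor motif, a repeat of AGGTCA after 4 free bases, and none of these contains another. The sequences run 5′ to 3′ along the strand of the gene, stop before any annotated exon, and carry matches in capitals.
Prlr, first start site, chr15:10176988-10177237, plus strand: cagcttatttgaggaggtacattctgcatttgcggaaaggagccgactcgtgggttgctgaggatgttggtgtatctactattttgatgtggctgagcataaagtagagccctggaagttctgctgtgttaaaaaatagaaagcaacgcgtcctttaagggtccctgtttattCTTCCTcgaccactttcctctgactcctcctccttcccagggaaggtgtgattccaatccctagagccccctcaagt
Prlr, internal start site, chr15:10223656-10223905, plus strand: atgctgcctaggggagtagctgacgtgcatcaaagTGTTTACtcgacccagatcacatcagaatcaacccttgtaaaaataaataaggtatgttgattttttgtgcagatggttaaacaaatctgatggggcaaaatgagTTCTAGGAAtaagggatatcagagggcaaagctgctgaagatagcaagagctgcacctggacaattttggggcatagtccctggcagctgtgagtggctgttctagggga
Elf5, internal start site, chr2:103423818-103424061, plus strand: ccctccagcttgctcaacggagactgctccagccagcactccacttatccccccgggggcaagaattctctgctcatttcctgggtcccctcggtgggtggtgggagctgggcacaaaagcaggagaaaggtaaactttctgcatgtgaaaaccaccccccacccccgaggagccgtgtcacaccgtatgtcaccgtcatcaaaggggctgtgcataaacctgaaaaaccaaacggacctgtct
Foxa1, chr12:57546122-57546361, minus strand: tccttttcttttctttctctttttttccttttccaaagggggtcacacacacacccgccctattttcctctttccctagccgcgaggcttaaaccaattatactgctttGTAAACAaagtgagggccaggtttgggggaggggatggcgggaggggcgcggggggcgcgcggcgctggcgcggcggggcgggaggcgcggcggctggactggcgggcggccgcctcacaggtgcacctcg
The internal Prlr window shown held TTCTAGGAA, a STAT5 motif, at position -110 from the start site and the forkhead motif TGTTTAC at position -215. The first Prlr window held an ETS motif at position -77, on the opposite strand (CTTCCT), and the Foxa1 window a forkhead motif at position -141, on the opposite strand (GTAAACA). Of the windows not printed, the second internal Prlr window held an ETS motif at position -67, those of Stat5a at -96 and -10 and those of Stat5b at -57 and -1. No motif was matched in the Elf5 stretch or in the other Elf5 and Gata3 windows. Of all 32817 promoter windows, 8.29% held the STAT5 motif, 35.4% the ETS motif, 11.2% the GATA motif and 3.65% the forkhead motif, while the grainyhead and liver X receptor motifs, found in 0.146% and 0.0152%, were in none of the 11 windows. A match describes letters only, and the counts do not resolve which start site was used.

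DMHCA was compared with control to ask whether the lineage program of the tumors differed under treatment. None of the 10 genes passed the test: the smallest adjusted p among them was 0.644 in edgeR's quasi-likelihood fit, adjusted by Benjamini-Hochberg over all genes, the same as the smallest of any gene. At an unadjusted p under 0.05, 1 of the 10 genes, Trp63, was lower and 0 were higher, where 4.08% of all genes tested were lower and 3.53% higher. The mean was higher with DMHCA in 4 of the 10 genes (48% of all genes tested) and lower in 6. The groups did not overlap in 1 gene in the higher direction, Grhl2 (13.8% of all genes), and in 1 in the lower, Trp63 (12.2% of all genes). In either direction these are 2 of 10 genes, against 25.9% of all genes. A mean at least 2-fold lower was found for 2 genes, Trp63 and Foxa1 (13.2% of all genes), and at least 2-fold higher for 0 (5.15%). Such counts of 1 or 2 genes in 10 lie near the background. Their median log2 fold change was -0.05, against -0.03 for all genes. Of all 19427 genes, 0 had an adjusted p under 0.05 and 7.61% an unadjusted p under 0.05, and DESeq2 called 265 genes with the 5 samples and 886 with the 6 libraries taken as separate, among them 0 and 1 of the 10 genes.

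**Figure D1:**
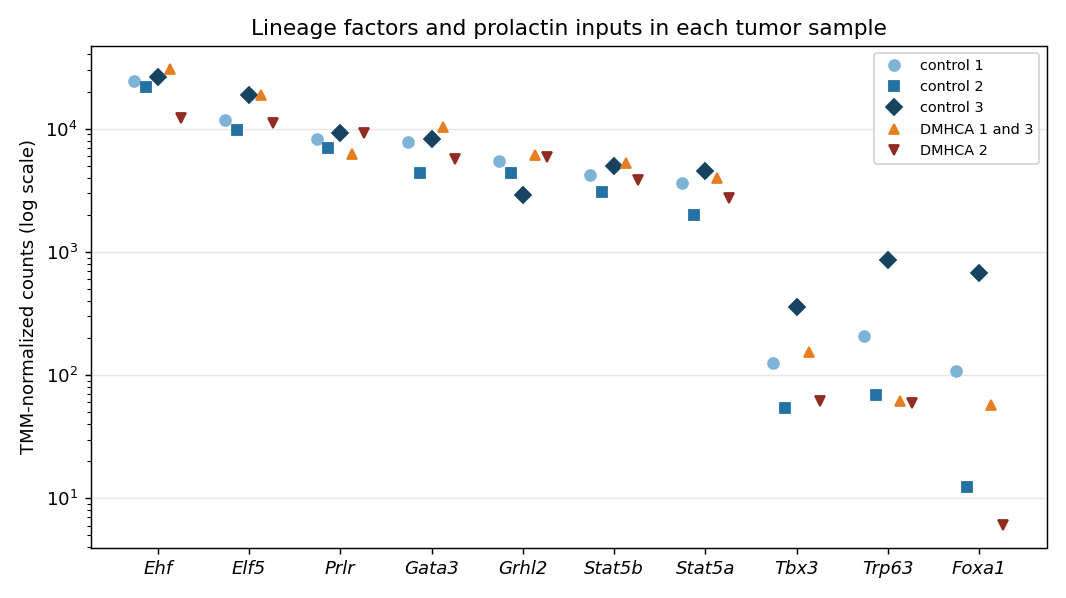
TMM-normalized counts (log scale) of the 10 genes in each of the 5 samples, with 1 point per sample and the DMHCA 1 and 3 libraries summed. Points lie close together for the 7 genes on the left, from Ehf to Stat5a, and spread widely for Tbx3, Trp63 and Foxa1, which are highest in control 3.

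The prolactin receptor and the STAT5 factors were present at similar levels in both groups. Prlr (ENSMUSG00000005268, GRCm38 chromosome 15, 10177238 to 10349180, plus strand) had 8206, 7009 and 9185 normalized counts in control 1, 2 and 3, 6197 in DMHCA 1 and 3 and 9146 in DMHCA 2. The lowest and a near-highest value were thus both DMHCA samples, and the groups overlapped. Means were 8133 ± 1089.6 in controls (SD, n = 3) and 7672 ± 2086 with DMHCA (SD, n = 2), giving a log2 fold change of -0.08 (standard error, SE, 0.29, 95% interval -0.79 to 0.62). Prlr had the narrowest range of the 10 genes, with 1.48 times as many counts in its highest as in its lowest sample, and only 11.5% of all genes tested had a narrower one. Its exons overlap those of Gm21973 on the same strand, with which 1% of its 50-base stretches were shared.

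Stat5a (ENSMUSG00000004043, chromosome 11, 100859351 to 100885169, plus strand) and Stat5b (ENSMUSG00000020919, chromosome 11, 100780731 to 100850724, minus strand) lie head to head, 8.6 kb apart. Stat5a had 3594, 1996 and 4526 normalized counts in control 1, 2 and 3, 3957 in DMHCA 1 and 3 and 2730 in DMHCA 2. Both DMHCA values fell between the lowest and highest controls. Its log2 fold change was -0.01 (SE 0.39, 95% interval -0.95 to 0.93), with means of 3372 ± 1279 (SD, n = 3) and 3343 ± 868 (SD, n = 2), and its sign turned under several alternatives. Stat5b had 4216, 3055 and 4935 normalized counts in the controls and 5268 and 3807 with DMHCA. Its highest value was DMHCA 1 and 3 and its lowest control 2, and the log2 fold change was 0.16 (SE 0.31, 95% interval -0.58 to 0.89). The ratio of Stat5a to Stat5b in TPM lay between 1.01 (control 2) and 1.40 (control 1) and was 1.15 and 1.22 in the DMHCA samples. The paralogs shared 8.2% of the 50-base stretches of Stat5a and 11% of those of Stat5b, and Stat5a also overlaps exons of Stat3 on the opposite strand, so a small part of their reads cannot be assigned with certainty.

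Other genes of the pathway were taken from a list of 16 kinases, inhibitors and related receptors, of which 15 were tested and Prl, the hormone's own gene, had too few reads. Of the 15, 7 had a higher (48% of all genes tested) and 8 a lower mean with DMHCA. Their median log2 fold change was -0.01. At an unadjusted p under 0.05 there was 1 gene in each direction, against 3.53% of all genes higher and 4.08% lower. At an adjusted p under 0.05 there were 0. Jak2, the kinase of the receptor, had 2973, 2696 and 3728 normalized counts in the controls and 2599.8 and 3711 with DMHCA, a log2 fold change of 0.01. Socs3, a feedback inhibitor of JAK kinases that many cytokines induce, had 1309, 1505 and 1360.4 normalized counts in the controls and 720.0 and 649 with DMHCA. The groups did not overlap, the log2 fold change was -1.02 (SE 0.28) and the adjusted p was 0.644 in the edgeR quasi-likelihood fit. DESeq2 called Socs3 with the 5 samples and with the 6 libraries. The STAT5 target inhibitors Cish and Socs2 overlapped between the groups, with log2 fold changes of -0.18 and 0.27 (Jak2, Cish and Socs2 were named after their values were seen). Ptpn1, a phosphatase gene, reached 14612 normalized counts in DMHCA 2 against 2937 to 4051 in the other 4 samples. Its log2 fold change of 1.41 was 0.25 without DMHCA 2. Cav1, a caveolin gene, was lower without overlap (-0.80, SE 0.34), and Src was higher without overlap (0.65, SE 0.32), both at an unadjusted p over 0.05.

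Milk protein genes, on which STAT5 and ELF5 act, varied far more than the factors. Of 8 milk genes 7 had a lower mean with DMHCA, where 48% of all genes tested had a higher one. At an unadjusted p under 0.05, 3 were lower (Csn2, Csn1s2b and Glycam1), against 4.08% of all genes. Yet the groups overlapped in all 8. Csn2, encoding beta-casein, had 28232, 758 and 529093 normalized counts in control 1, 2 and 3 and 2188 and 684 with DMHCA, and its log2 fold change was -7.02 (SE 2.68) and -3.34 without control 3. Control 2 was thus as low as the DMHCA samples, and 6 of the 8 genes were highest in control 3. Csn3, encoding kappa-casein, was the exception to this spread, at 659317, 710469 and 757825 normalized counts in the controls and 763223 and 359121 with DMHCA. Lalba, encoding alpha-lactalbumin, was highest in DMHCA 1 and 3, at 91399 normalized counts, and had 791 in DMHCA 2. The highest sample held 773 times as many Csn2 counts as the lowest, 589.9 times for Csn1s1, 673 for Csn1s2a and 1201.5 for Glycam1. Elf5, Stat5a and Stat5b stayed within 2.27 times. Each of these milk genes was highest in control 3. Csn1s1, Csn1s2a and Glycam1 had 355044, 351173 and 21752 normalized counts there. In control 1, the next highest sample, they had 30348, 20200 and 2035. Wap, the whey acidic protein gene, ranged from 3.05 normalized counts, which are 3 reads, in DMHCA 2 to 1908 in control 3.

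**Figure D2:**
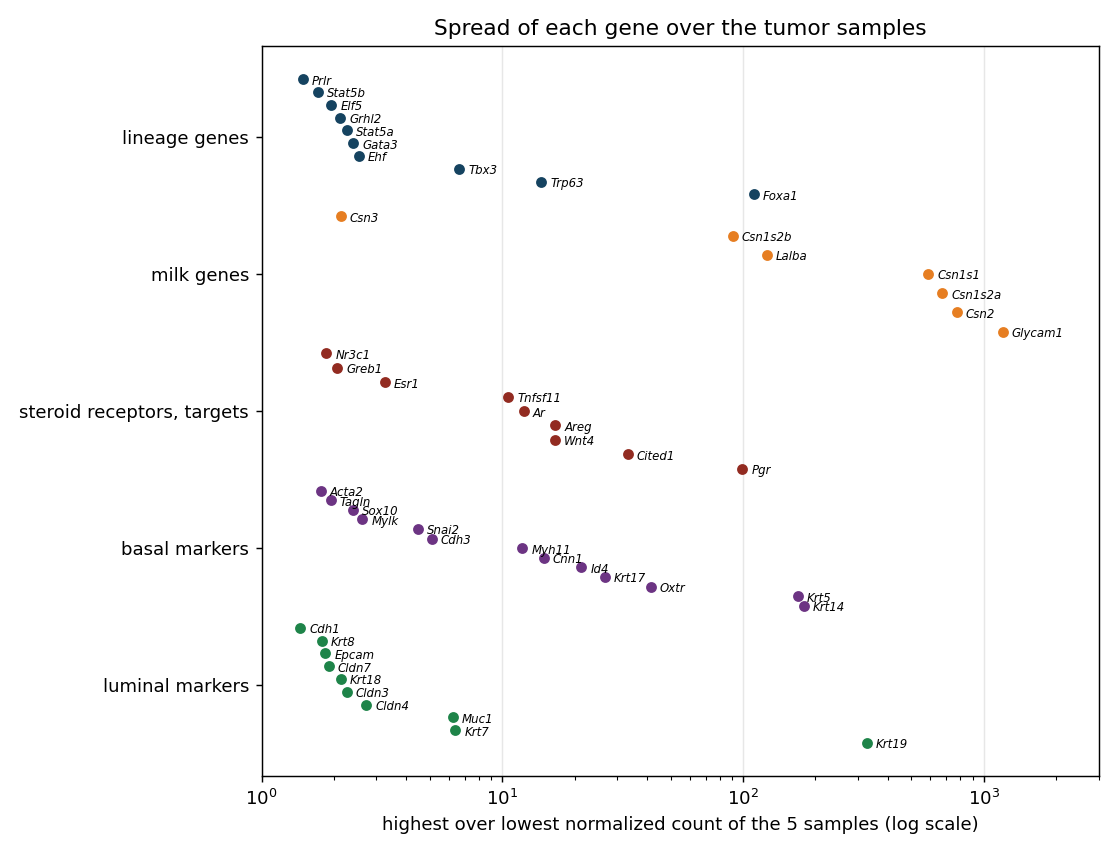
Highest over lowest normalized count of the 5 samples (log axis) for each of the 10 genes and for milk genes, steroid receptors and targets, basal markers and luminal markers, with 1 point per gene and genes with 3 or fewer reads in their lowest sample left out. Of the 10 genes, 7 stay within 2.53 times, while Tbx3, Trp63 and Foxa1 reach 6.62, 14.5 and 111 times and most milk genes lie further right.

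Elf5 and Ehf, which encode ETS factors of the same subfamily, are neighbors on chromosome 2. Elf5 (ENSMUSG00000027186, 103411688 to 103450989, plus strand) and Ehf (ENSMUSG00000012350, 103263433 to 103303278, minus strand) are separated by 108.4 kb. Elf5, a driver of alveolar differentiation, had 11804, 9662 and 18818 normalized counts in control 1, 2 and 3, 18865 in DMHCA 1 and 3 and 11052 in DMHCA 2. The highest DMHCA and highest control samples were nearly equal, and so were the lower samples of each group. Means were 13428 ± 4789 (SD, n = 3) and 14958 ± 5525 (SD, n = 2), giving a log2 fold change of 0.16 (SE 0.41, 95% interval -0.82 to 1.13). Ehf had 24369.9, 21679.6 and 26167 normalized counts in the controls and 30629 and 12113 with DMHCA. The DMHCA samples held both its highest and its lowest value, on either side of the 3 controls, and the log2 fold change of -0.17 (SE 0.44, 95% interval -1.22 to 0.87) became 0.39 without DMHCA 2. The ratio of Elf5 to Ehf in TPM was 1.34, 1.14 and 2.09 in the controls, 1.74 in DMHCA 1 and 3 and 2.72 in DMHCA 2, so DMHCA 2 had the least Ehf for its Elf5.

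Within 250 kb of the pair 6 other genes were expressed, and 0 had an unadjusted p under 0.05. BC016548, a non-coding RNA gene between Ehf and Elf5, had 85.1, 100.0 and 320.5 normalized counts in the controls and 70.1 and 35.6 with DMHCA, a log2 fold change of -1.67 (SE 0.80) without overlap. Pdhx, Cat and Abtb2 were higher without overlap (log2 fold changes of 0.38, 0.41 and 0.50), and Apip and Gm13869 overlapped. Around Stat5a and Stat5b 20 other genes were expressed, again with 0 at an unadjusted p under 0.05, and their log2 fold changes ran from -1.20 (Hsd17b1) to 0.61 (Dhx58). Stat3, next to Stat5a, had a log2 fold change of 0.22 (SE 0.31).

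Gata3 (ENSMUSG00000015619, chromosome 2, 9857078 to 9890034, minus strand), which encodes a zinc finger factor needed for luminal cells, had 7769, 4327 and 8207 normalized counts in the controls and 10394 and 5646 with DMHCA. The highest value was DMHCA 1 and 3 and the lowest control 2, and the groups overlapped. Means were 6767 ± 2125 (SD, n = 3) and 8020.2 ± 3357 (SD, n = 2), with a log2 fold change of 0.25 (SE 0.41, 95% interval -0.73 to 1.22). The log2 fold change of Gata3 was 0.00 without control 2 and 0.66 without DMHCA 2. Its exons overlap Gm13256 on the opposite strand and 9230102O04Rik on the same strand, and 2.2% of its 50-base stretches were shared.

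Grhl2 (ENSMUSG00000022286, chromosome 15, 37233036 to 37363569, plus strand) had 5463, 4405 and 2902 normalized counts in control 1, 2 and 3, 6143 in DMHCA 1 and 3 and 5881 in DMHCA 2. Both DMHCA samples lay above all 3 controls, and Grhl2 was the only one of the 10 genes that was lowest in control 3. Means were 4257 ± 1287 (SD, n = 3) and 6012 ± 185 (SD, n = 2), giving a log2 fold change of 0.50 (SE 0.32, 95% interval -0.27 to 1.26, adjusted p = 0.683 by edgeR). Reads of the antisense gene Gm16136, whose exons overlap those of Grhl2, numbered 838 to 1606 in the controls and 1226 to 2848 in the DMHCA libraries, and without a stated strand setting the reads of the overlap cannot be told apart. Its relative Grhl1 was also higher without overlap, at 3860, 1503 and 3782 normalized counts in the controls and 4917 and 4046 with DMHCA (log2 fold change 0.56, SE 0.43), and was named after its values were seen.

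Foxa1 (ENSMUSG00000035451, chromosome 12, 57540628 to 57546916, minus strand), which encodes a forkhead factor that opens chromatin for the estrogen receptor, was the most variable of the 10 genes. It had 108, 12.4 and 678 normalized counts in control 1, 2 and 3, 57.0 in DMHCA 1 and 3 and 6.10 in DMHCA 2. Control 2 lay below DMHCA 1 and 3, so the groups overlapped. The range of 111 times from lowest to highest was wider than that of 98.4% of all genes tested, and among controls alone it was 54.7 times. The lowest value rests on 6 reads (exact 95% Poisson interval 2.20 to 13.1, counting error only) and the highest on 624 reads (576 to 675). Means were 266 ± 359.8 (SD, n = 3) and 31.5 ± 36.0 (SD, n = 2), giving a log2 fold change of -3.05 (SE 1.72, 95% interval -7.17 to 1.06), which was -0.91 (SE 1.25) without control 3.

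Samples ordered by Foxa1 ran control 3, control 1, DMHCA 1 and 3, control 2 and DMHCA 2, and 587 of the 19427 genes tested (3.02%) had this same order. Among them were 4 of the 8 milk genes, Csn2, Csn1s1, Csn1s2b and Wap, and 3 of the 13 basal markers, Krt5, Krt14 and Cnn1. Single markers of other cells had it too, namely Dcn and Lum of the 6 fibroblast markers and Cd3d, 1 of 9 lymphocyte markers. Of 5 adipocyte markers 0 had it. Gata2 and Runx1, 2 of 24 further factor genes, and the integrin gene Itga2 had it as well. The progesterone receptor gene Pgr, the 1 of 11 steroid receptors and targets with this order, had 132, 11.4 and 404 normalized counts in the controls. With DMHCA it had 66.1 and 4.07. The luminal keratin gene Krt19, the 1 of 10 luminal markers with this order, had 1962, 321 and 20906 in the controls. With DMHCA it had 895 and 64.1 (Pgr and the genes of this order were named after their values were seen). By the root mean square distance between centered log2 profiles over the 5 samples, the genes most like Foxa1 among 13863 were Fxyd2 (0.26), Muc4 (0.37) and Lyz1 (0.38). All these genes were highest in control 3, which follows from picking them by the order or profile of Foxa1. Control 3 had the most lymphocyte and adipocyte RNA, and the part of those cells in the values was not tested.

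**Figure D3:**
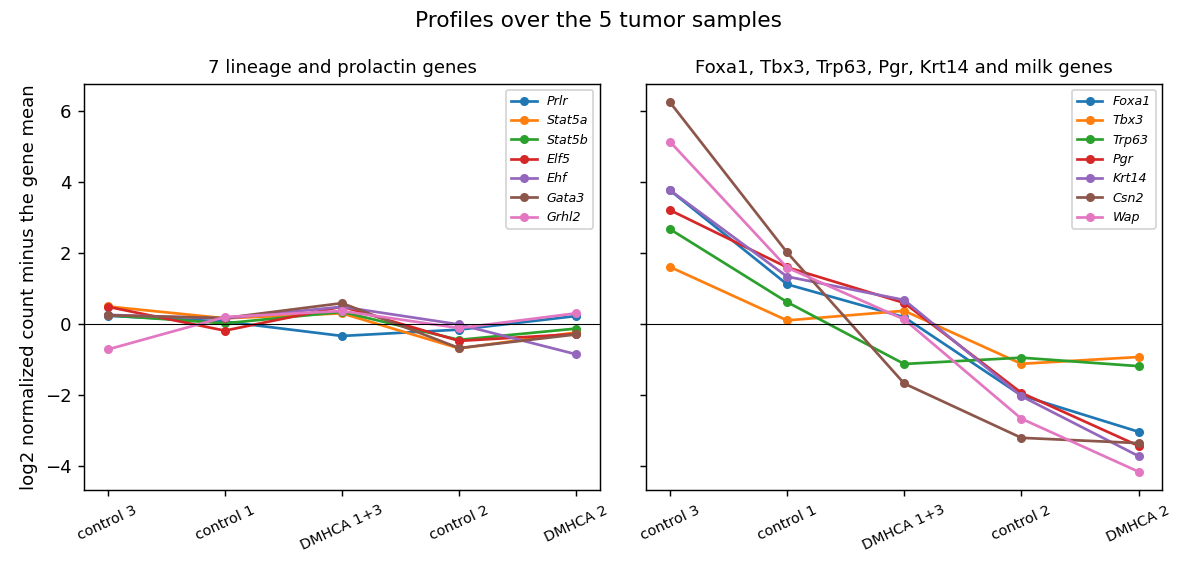
Log2 normalized counts minus the mean of the gene (vertical axis) in the 5 samples, placed in the order of their Foxa1 level, for 7 of the 10 genes on the left and for Foxa1, Tbx3, Trp63, Pgr, Krt14, Csn2 and Wap on the right, with 1 line per gene. The left lines stay near 0, and the right lines start highest in control 3 and end low in control 2 and DMHCA 2.

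Esr1, which encodes estrogen receptor alpha, the receptor that FOXA1 works with, varied over the samples far less than Foxa1. It had 908, 1098 and 1149 normalized counts in the controls and 441 and 354 with DMHCA. All controls lay above both DMHCA samples, and the log2 fold change was -1.40 (SE 0.33), with an adjusted p of 0.644 in the edgeR quasi-likelihood fit. Areg, an estrogen-induced growth factor gene, had 214, 860.4 and 793 normalized counts in the controls and 139 and 51.9 with DMHCA (-2.70, SE 0.81), also without overlap. DESeq2 called both genes, with the 5 samples and with the 6 libraries. Of 11 steroid receptors and targets tested, 8 had a lower and 3 a higher mean (48% of all genes tested were higher). At an unadjusted p under 0.05, 3 were lower (Esr1, Areg and Calca), against 4.08% of all genes. Calca was near the floor, at 5.80, 51.45 and 85.8 normalized counts in the controls and 3.025 and 1.02 with DMHCA. Its lowest value, in DMHCA 2, rests on 1 read. The list's median log2 fold change was -2.13, and -0.52 over the 10 genes tested without control 3, so its size rests in large part on that sample. Nr3c1, the glucocorticoid receptor gene, had 5589.8, 4945 and 6885 normalized counts in the controls and 6788 and 9217 with DMHCA (0.46, SE 0.28).

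Tbx3 (ENSMUSG00000018604, chromosome 5, 119670669 to 119684724, plus strand), a T-box factor gene needed for the mammary bud, had 127, 54.3 and 359.6 normalized counts in control 1, 2 and 3, 153 in DMHCA 1 and 3 and 62.0 in DMHCA 2. Control 3 was highest, control 2 was lowest and both DMHCA samples lay between them. The log2 fold change was -0.74 (SE 0.89, 95% interval -2.87 to 1.38), and it turned to 0.25 without control 3. Its overlap with the antisense gene Tbx3os1 covers 1% of its 50-base stretches. In DMHCA 2 RSEM's effective length of Tbx3 was 2013 bases against 4325 to 4705 in the other libraries, which raises its TPM there relative to its counts.

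Trp63 (ENSMUSG00000022510, chromosome 16, 25683763 to 25892102, plus strand) had 206, 69.6 and 854 normalized counts in control 1, 2 and 3, 61.5 in DMHCA 1 and 3 and 59.0 in DMHCA 2. All controls lay above both DMHCA samples, but control 2 by a narrow margin, with 73 reads where the DMHCA libraries had 53 to 69. Means were 376.5 ± 419 (SD, n = 3) and 60.2 ± 1.8 (SD, n = 2), giving a log2 fold change of -2.64 (SE 1.09, 95% interval -5.25 to -0.04, unadjusted p = 0.0478 and adjusted p = 0.644 in the edgeR quasi-likelihood fit). Without control 3 the log2 fold change was -1.20 (SE 0.68) and the unadjusted p was 0.126 by edgeR. That p was also no longer under 0.05 without control 1 (0.0534), DMHCA 2 (0.147) or DMHCA 3 (0.0514), so 4 of the 6 fits with a library left out lost it, all by edgeR. Gene counts do not separate the long and the N-terminally truncated p63 isoforms.

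Most other basal markers had a lower mean with DMHCA, and most were highest in control 3. Of 13 basal markers tested 11 had a lower and 2 a higher mean (48% of all genes tested were higher), and 0 had an unadjusted p under 0.05. Highest in control 3 were 11, against 27.4% of all genes tested. Krt14, a basal keratin gene, had 236, 22.9 and 1273 normalized counts in the controls and 149 and 7.12 with DMHCA, so unlike Trp63 its groups overlapped. Krt5, its partner keratin gene, had 219, 53.4 and 1201 in the controls and 132 and 7.12 with DMHCA. The 2 basal markers with a higher mean were Sox10 and Id4. Sox10, a factor gene with the smallest p of the list, had 25069.8 normalized counts in control 1, 21269.9 in control 2 and 12861 in control 3. With DMHCA it had 30575 and 30802 without overlap (0.64, SE 0.36). Id4 (1.65, SE 1.04) had 166, 37.2 and 214 in the controls and 80.7 in DMHCA 1 and 3. Its higher mean rested on DMHCA 2, at 793. Summed over the list, basal markers came to 452, 261 and 361 TPM in the controls and to 483 and 488 TPM with DMHCA, a sum that was higher with DMHCA while the median of the list was lower. The list's median log2 fold change was -0.64, and 0.01 without control 3, when 6 had a lower and 7 a higher mean. The profiles most like Trp63 among 13863 genes were those of Grap2 (distance 0.08), Gimap8 (0.16) and Slamf6 (0.18), which are known as genes of T cells and other lymphocytes. Lymphocyte markers summed to 42.4, 1.99 and 365 TPM in control 1, 2 and 3 and to 7.69 and 4.99 TPM with DMHCA, all 9 were highest in control 3, and none of the 9 was at 0 in any sample. Their part in the Trp63 values was not tested.

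**Figure D4:**
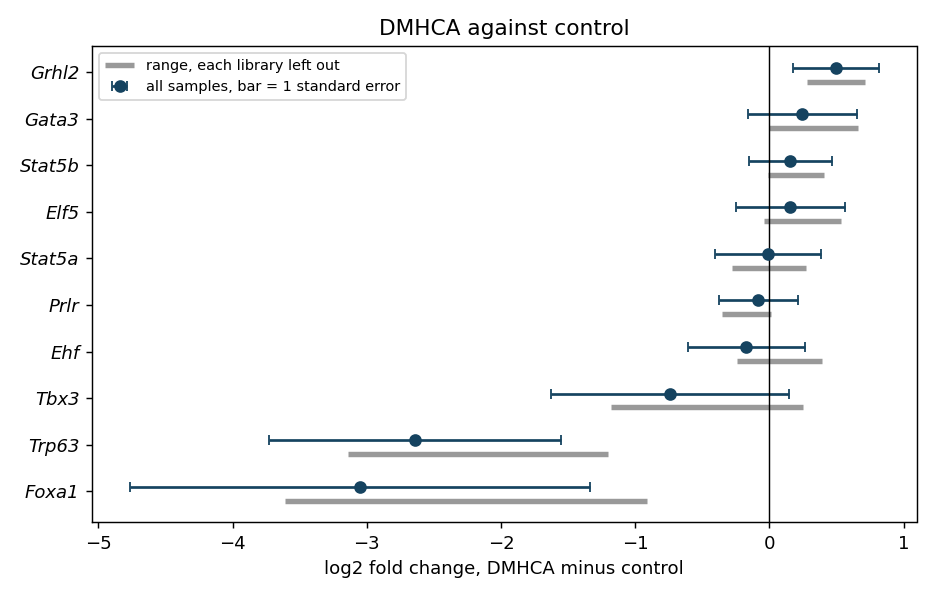
Log2 fold change of each of the 10 genes, DMHCA minus control, with bars of 1 SE (points) and the range over fits with each library left out (gray bars below). The gray ranges of Prlr, Stat5a, Stat5b, Elf5, Ehf and Tbx3 reach both sides of 0, and those of Trp63 and Foxa1 run from -3.14 to -1.20 and from -3.61 to -0.91.

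To set the genes against luminal epithelial RNA, each was divided by the geometric mean of Krt8, Krt18, Epcam and Cdh1, luminal keratin and adhesion genes. This mean was 47313, 56669 and 36934 normalized counts in control 1, 2 and 3 and 54110.0 and 51669.5 with DMHCA. On this scale the log2 difference between groups was between -0.51 (Ehf) and 0.35 (Grhl2) for the 7 abundant genes, -0.67 for Tbx3, -2.13 for Trp63 and -2.57 for Foxa1. With a library left out the last 2 ran from -3.14 (without control 2) to -1.02 (without control 3) for Trp63 and from -4.20 (without control 2) to -1.0 (without control 3) and -0.99 (without DMHCA 2) for Foxa1. With 3 against 2 samples the two-sided exact permutation test cannot go below 0.2, and Trp63 alone reached that value (exact p = 0.2). Its margin was narrow, at a log2 ratio of -9.67 in control 2 and -9.78 in both DMHCA samples. For Trp63, a basal factor gene, the divisor is luminal and not basal RNA. These differences depend on the markers chosen, since Krt8 and Krt18 had a higher mean with DMHCA (log2 fold changes of 0.54 and 0.40) and Krt19, Krt7, Muc1 and Cldn4 a lower one (-4.01, -1.73, -1.19 and -1.11, Muc1 being named after its values were seen). The values of Krt19 and Krt7 were -1.25 without control 3 and -1.08 without control 2. Divided by all 10 luminal markers, the difference turned positive for Prlr, Stat5a, Stat5b, Elf5, Ehf and Tbx3 (0.12 to 0.76), and it was 0.83 for Gata3, 1.14 for Grhl2, -1.34 for Trp63 and -1.78 for Foxa1. Foxa1 relative to the 4 luminal markers ranged from -5.77 in control 3 to -12.16 in control 2 among the controls (log2 ratio).

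Among 24 further transcription factors of mammary epithelium, 16 had a higher and 8 a lower mean with DMHCA (48% of all genes tested were higher). The list's median log2 fold change was 0.32. At an unadjusted p under 0.05 were 2, both higher (3.53% of all genes tested). Cebpb, a factor needed for alveolar development, had 19371, 20925 and 17488 normalized counts in the controls and 29375 and 42847 with DMHCA (0.91, SE 0.31). Its unadjusted p by edgeR was 0.067 without control 1 and 0.0615 without control 3. The log2 fold change of Cebpb was 0.65 without DMHCA 2. Ovol1, a zinc finger factor gene of epithelia, had 244, 219 and 171 in the controls and 448 and 566 with DMHCA (1.26, SE 0.41). Both were higher in each DMHCA sample than in each control, at an adjusted p of 0.644 by edgeR. Tbx2, a relative of Tbx3, had 1344 normalized counts in DMHCA 2 and 82.2 to 198 in the other samples, so its log2 fold change of 2.27 turned to -0.81 without DMHCA 2. Bcl11b and Bcl11a, zinc finger factor genes, had log2 fold changes of -3.04 (-0.86 without control 3) and -0.54.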

How the data were processed

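RNAseq of 3 control and 3 DMHCA libraries was used. The submitters' notes name FastQC 0.11.9, Cutadapt 2.9, Bowtie2 2.4.1 and RSEM 1.3.1, with the Ensembl mouse genome mm10. The authors deposited RSEM expected counts (unnormalized, 19.6% to 23.5% not whole per library), TPM and FPKM per gene, where TPM and FPKM are scaled for length and depth by the authors. Whether strand was used is not given in the sources used here. Reads split among similar genes stay as deposited.

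Expected counts were rounded, and DMHCA libraries 1 and 3 were summed (18.2% of 13380 genes differed by chi-square, against 82% to 87% in the other pairs). edgeR 4.0.16 in R 4.3.3 was run with TMM, filterByExpr (minimum count 10, total 15) and a quasi-likelihood test whose p-values were adjusted by Benjamini-Hochberg over 19427 genes. Standard errors are the log2 fold change over the square root of F. Normalized counts are scaled to the mean total of the 6 libraries (54057378). The comparison was tested on simulated data. Alternatives were DESeq2 1.42.0, limma 3.58.1 on log2(TPM + 1), other filters and normalizations, a replicate block and libraries left out. Genes named are the 10 described, per list up to 3 with the smallest p in each direction, all milk genes, neighbors within 250 kb and the 3 profiles nearest to the 2 genes of widest range. Others are named as chosen after their values were seen. The 10 genes and all lists were chosen with earlier results of these data known. Coordinates are those of GENCODE M21 on GRCm38 (55144 of 55385 genes matched).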

Additional observations from a re-analysis of the deposited data

How the results depend on the processing

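With edgeR, 0 of the 10 genes and 0 list genes had an adjusted p under 0.05 with all samples and with each library left out (0 to 0 genes of all tested). DESeq2 called 265 genes of all, 13 of the list genes and 0 of the 10 on the 5 samples (of the list genes named, Socs3, Csn1s2b, Glycam1, Esr1, Areg, Calca, Cd14 and Aldh1a3), and 886, 23 and 1 (Trp63) on the 6 libraries taken as separate. Without a filter on low counts edgeR called 16 genes of all and 2 of the list genes. Why the tools differ was not tested. With limma on log2(TPM + 1), which shrinks the change of low genes, the log2 fold change was 0.10 for Prlr, 0.00 for Tbx3, -0.83 for Trp63 and -0.93 for Foxa1. That of Stat5a was 0.05 with DESeq2 and with edgeR on the 6 libraries, 0.02 without the filter and 0.27 with limma, and that of Ehf 0.01 with both tools on the 6 libraries. Leaving out each library gave -0.35 to 0.01 for Prlr, -0.28 to 0.27 for Stat5a, -0.01 to 0.41 for Stat5b, -0.04 to 0.53 for Elf5, -0.24 to 0.39 for Ehf, -1.18 to 0.25 for Tbx3, -0.39 to 0.15 for Csn3, -0.81 to 2.51 for Tbx2 and -0.05 to 0.90 for Snai1. Relative to all detected luminal markers in place of 4, the difference was 0.49 for Prlr, 0.64 for Stat5a, 0.76 for Stat5b, 0.76 for Elf5, 0.28 for Ehf, 0.12 for Tbx3, 0.83 for Gata3, 1.14 for Grhl2, -1.34 for Trp63 and -1.78 for Foxa1, with Krt19 and Krt7 then among the genes of the divisor. Relative to the 4 markers, leaving out each library gave -0.63 to 0.26 for Stat5a, -0.37 to 0.29 for Stat5b, -0.38 to 0.40 for Elf5, -0.73 to 0.13 for Ehf, -0.40 to 0.45 for Gata3, -1.47 to 0.20 for Tbx3, -3.14 to -1.02 for Trp63 and -4.20 to -0.99 for Foxa1. Without DMHCA 2 a lone DMHCA sample is assumed to vary like the controls.

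Deviations from group means correlated across genes at -0.11, 0.35 and 0.39 for the same-numbered pairs and at -0.40 to 0.38 for the other pairs. As DMHCA libraries 1 and 3 are nearly identical, these values cannot decide whether the replicate numbers pair the libraries. With the replicate block on the 6 libraries, 0 genes were called (3207 at an unadjusted p under 0.05, against 2912 without the block), and the log2 fold change was 0.11 for Stat5a, -0.28 for Tbx3, -1.91 for Foxa1 and -1.92 for Trp63. The unadjusted p of Trp63, 0.0478 in the edgeR fit, was 0.0635 with the block, 0.0528 at a minimum count of 100 and 0.196 with limma, and it was 0.0189 with edgeR on the 6 libraries, 0.00655 without the filter, 0.01 without control 2 and 0.00521 and 0.000688 with DESeq2 on the 5 samples and the 6 libraries. That of Foxa1, 0.122 in the edgeR fit, was 0.0429 with the block, 0.0212 without the filter, 0.0412 without control 2 and 0.0249 and 0.0159 with DESeq2 on the 5 samples and the 6 libraries, and 0.0882 to 0.492 under the other alternatives. The 5 or 6 libraries limit the precision, and for Foxa1 so does a depth of 6 to 13 reads in the lowest libraries.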

Other observations

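Of 5 luminal progenitor markers, 3 had a lower and 2 a higher mean with DMHCA (48% of all genes tested were higher). By edgeR 2 were lower at an unadjusted p under 0.05 (4.08% of all genes), and 0 had an adjusted p under 0.05. Cd14, a gene of luminal progenitors and of macrophages, had 16746, 11044 and 24149 normalized counts in the controls and 4930.4 and 4445 with DMHCA (log2 fold change -1.88, standard error 0.41), and it had the smallest p of the list (unadjusted p = 0.00283 by edgeR). Aldh1a3, a retinaldehyde dehydrogenase gene, had 4819, 2203 and 2221 normalized counts in the controls and 368 and 877 with DMHCA (log2 fold change -2.31, standard error 0.56), and in both genes the groups did not overlap and DESeq2 called them with the 5 samples. Kit, a receptor of luminal progenitors, had 19875, 16926 and 17574 normalized counts in the controls and 32081 and 19182 with DMHCA (0.50, standard error 0.33). Itgb3, an integrin gene, had 15755 normalized counts in DMHCA 2 and 4800.4 to 6429 in the other samples, and its log2 fold change of 0.97 was 0.20 without DMHCA 2.

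Of 6 mesenchymal transcription factors 5 had a lower and 1 a higher mean (48% of all genes tested were higher). Highest in control 3 were 5, against 27.4% of all genes. Twist2 had 63.8, 54.3 and 152 normalized counts in the controls and 33.3 and 22.4 with DMHCA (-1.68, standard error 0.69), with an unadjusted p of 0.0477 and an adjusted p of 0.644 by edgeR. Without control 3, 0 of the 6 had an unadjusted p under 0.05 and 5 had a higher mean. Of 10 luminal markers 2, Krt7 and Cldn4, had an unadjusted p under 0.05, both lower, at log2 fold changes of -1.73 (standard error 0.57) and -1.11 (standard error 0.41).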
